A study of Mus musculus with 2 samples.

Results

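The genes described here are the 10 that encode the TGF-β ligands (Tgfb1, Tgfb2 and Tgfb3), their receptors (Tgfbr1, Tgfbr2 and Tgfbr3) and the latent TGF-β binding proteins (Ltbp1, Ltbp2, Ltbp3 and Ltbp4), out of 18193 genes named on the arrays. They were taken by name, as every probe set annotated to 1 of these symbols alone, and all 10 were found, with 24 probe sets between them. The study compared 2 cultures of cells of the mouse urogenital sinus mesenchyme (UGM), the fetal stroma around the epithelium from which the prostate buds, on 1 Affymetrix expression array each, to find genes induced by steroid hormones. Both cultures came from male C57BL/6 mice at day 16 and were held for 72 h in RPMI medium with 5% charcoal-stripped serum, from which steroids have been removed, and the antibiotic Plasmocin. The untreated culture received nothing more, and the T+E2 culture received testosterone (12 nM) and estradiol-17 beta (120 pM). No single-hormone culture is among the samples, so effects of the androgen and of the estrogen cannot be told apart. The labels do not say whether the cells were primary or a line, or how many animals gave them.

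TGF-β is made as a precursor whose propeptide stays bound to the mature cytokine and keeps it latent. In most stromal cells the latent form is linked to a latent TGF-β binding protein (LTBP), which anchors it in the matrix until integrins or proteases release it. The free ligand binds the type II receptor, which then phosphorylates the type I receptor, and that kinase activates Smad2 and Smad3. In the developing prostate, stromal TGF-β signalling is known to restrain epithelial growth and to favour smooth muscle differentiation.

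Values are GCRMA intensities, and differences are log2 of T+E2 minus log2 of untreated, with any value under a log2 of 5 (intensity 32), the floor, raised to it. A gene counts as measured if it came up to the floor on either array, and its value is that of its probe set with the highest mean. With 1 array per condition there was no replicate check and no test, so each difference below is between 2 arrays. The sample titles give a time of 24 h, against 72 h in every other label. The descriptions also give the untreated cells as confluent and the T+E2 cells as nearly so, whereas the growth protocol gives 80% confluency for both, and any effect of density cannot be told apart from that of the hormones. Over 10267 measured genes the differences had a median of 0.07, quartiles of -0.32 and 0.45 and an SD of 0.62. The 18 hybridization spikes added to both samples differed by -0.25 to 0.09, with an SD of 0.121, and probe sets of 1 gene differed with a median SD of 0.22. Of 12 mesenchymal markers, 11 were measured (all but Thy1), including the filament gene Vim (35799 untreated and 38406 under T+E2) and the collagen gene Col1a1 (31172 and 37371).

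All 10 TGF-β genes were measured on both arrays, and all 10 were higher with T+E2, by 0.34 to 1.26 on the log2 scale with a median of 0.59. Across all measured genes, 55.8% lay above 0. In 7 of the 10, the difference exceeded the upper quartile of all measured genes. Only Tgfbr3 was at least 2-fold higher, 1 of 10 members against 4.96% of all measured genes, and none was at least 2-fold lower, against 4.01%. The medians were 0.61 for the ligands, 0.46 for the receptors and 0.59 for the LTBPs. The receptor median depended on the probe sets read, at 1.07 with the median difference over the measured probe sets of each gene. A bulk array cannot tell more RNA per cell apart from more cells of an expressing type.

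**Figure D1:**
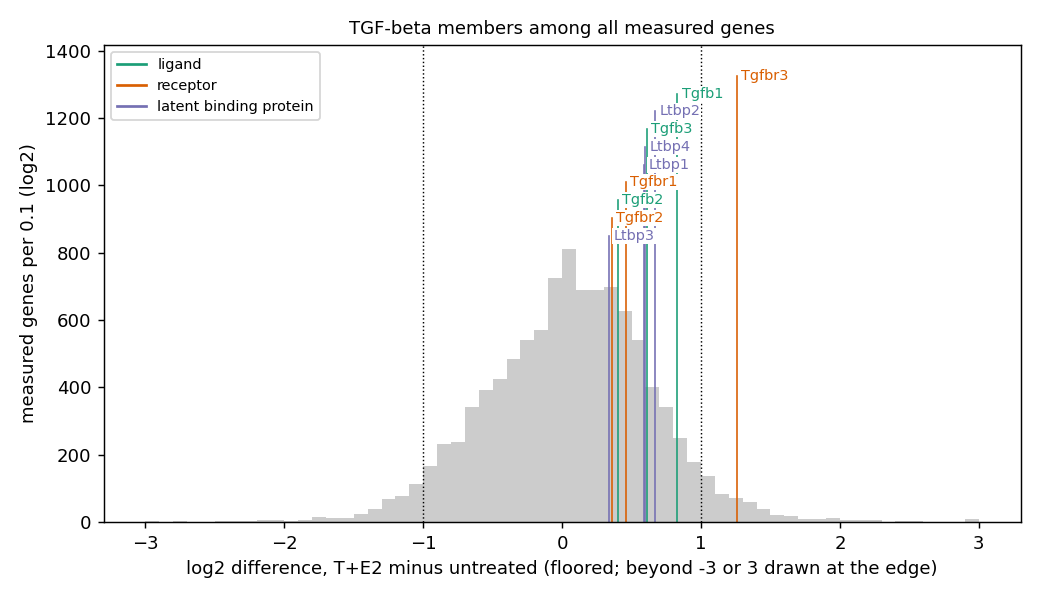
Histogram of the log2 difference (T+E2 minus untreated) over the 10267 measured genes, with a vertical line for each TGF-β gene, coloured by class; dotted lines mark 2-fold in either direction. All 10 lines stand to the right of 0, between 0.34 (Ltbp3) and 1.26 (Tgfbr3), and Tgfbr3 alone lies beyond 2-fold.

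Among the ligands, Tgfb1, which encodes the isoform most widely made by stromal and blood cells, read 40.8 untreated and 72.7 under T+E2. That is 1.78-fold (log2 difference 0.83), larger than the difference of 91.8% of measured genes. The untreated level lay just above the floor, and at a floor of 6 the difference was 0.18. A second Tgfb1 probe set was under the floor on both arrays.

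The gene for the isoform with the strongest need for a co-receptor, Tgfb2, read 2642 untreated and 3481 under T+E2, 1.32-fold (0.40). It had 4 measured probe sets, and all 4 were higher with T+E2, by 0.28, 0.40, 0.43 and 0.51. Tgfb2 was thus the member with the most probe sets on 1 side, at a small size. Tgfb3, an isoform known for its part in palate fusion, read 1418 untreated and 2162 under T+E2 on its single probe set, 1.52-fold (0.61). The difference of Tgfb1 was 0.43 larger than that of Tgfb2, and that of Tgfb3 was 0.21 larger, or 0.81 and 0.55 with a trend with gene span removed, which is described further on. At a floor of 6, Tgfb1 (0.18) instead lay below Tgfb2 (0.40).

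The sequence upstream of the start was looked at because the members lay on the same side. RefSeq windows on GRCm38.p6 were matched for 8 of the 10 members by symbol, 12 windows in all, and the 250 bases before each start were searched on both strands for 6 motifs. These were an AP-1 site (TGANTCA), a half-site of the androgen and glucocorticoid receptors (TGTTCT), a half-site of the estrogen receptors (AGGTCA), a Smad element (CAGAC), an Sp1 box (GGGCGG) and a TATA box (TATAAA). No matches of 2 different motifs overlapped in the member windows. The windows that end at the annotated gene start, 4 in number, are printed here and in the next paragraphs 5′ to 3′, with matches to any of the 6 motifs in capitals. Tgfb1 held 5 Sp1 boxes and no other match in a window with 75.2% G and C.
Tgfb1 upstream window, chr7:25686752-25687001, plus strand: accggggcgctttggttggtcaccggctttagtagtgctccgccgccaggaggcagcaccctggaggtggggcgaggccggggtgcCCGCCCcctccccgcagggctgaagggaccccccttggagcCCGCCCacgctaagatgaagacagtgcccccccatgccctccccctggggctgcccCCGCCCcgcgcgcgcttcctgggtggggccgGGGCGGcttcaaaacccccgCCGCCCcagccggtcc

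Among the receptors, Tgfbr3 stood apart in size. It encodes betaglycan, a large membrane proteoglycan with no kinase that presents ligand, TGF-β2 above all, to the signalling pair, and whose shed form can trap it. It read 2504 untreated and 5988 under T+E2, 2.39-fold (1.26), a larger difference than 97.7% of measured genes. A second Tgfbr3 probe set read 26.1 untreated, under the floor, and 145 under T+E2, which is at least 4.53-fold higher.

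Tgfbr1, the type I receptor kinase also called ALK5, read 1308 untreated and 1796 under T+E2, 1.37-fold (0.46). Its second measured probe set, annotated to the same accession, read 39.9 and 128 (1.68), so both were higher but by unequal amounts, and the third was under the floor on both arrays. The ligand-binding type II receptor gene, Tgfbr2, read 3630 untreated and 4654 under T+E2, 1.28-fold (0.36), and its other 2 probe sets were under the floor. The differences of the signalling pair were 0.10 apart on these probe sets, but with the median over measured probe sets Tgfbr1 was at 1.07 and Tgfbr2 at 0.36. The difference of Tgfbr3 exceeded that of Tgfbr1 by 0.80 and that of Tgfbr2 by 0.90. With the span trend removed those contrasts with Tgfbr3 were 0.55 and 0.74.

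Of the kinase receptor windows printed here, that of Tgfbr1 held 2 Sp1 boxes and no Smad element, and that of Tgfbr2 held 1 Smad element and no Sp1 box. Another Tgfbr1 window, not printed here, held 1 Smad element and no Sp1 box.
Tgfbr1 upstream window, chr4:47352972-47353221, plus strand: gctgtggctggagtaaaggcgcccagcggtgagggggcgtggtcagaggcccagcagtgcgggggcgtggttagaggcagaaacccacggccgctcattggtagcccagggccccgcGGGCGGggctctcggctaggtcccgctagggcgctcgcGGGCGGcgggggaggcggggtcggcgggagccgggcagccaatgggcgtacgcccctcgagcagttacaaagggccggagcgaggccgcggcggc
Tgfbr2 upstream window, chr9:116175364-116175613, minus strand: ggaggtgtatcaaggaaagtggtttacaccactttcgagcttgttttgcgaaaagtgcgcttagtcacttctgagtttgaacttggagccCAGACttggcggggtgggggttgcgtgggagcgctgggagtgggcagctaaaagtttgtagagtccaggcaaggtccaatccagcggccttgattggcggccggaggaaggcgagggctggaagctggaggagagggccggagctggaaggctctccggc

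The LTBP genes encode fibrillin-like proteins. Ltbp1, whose product carries latent TGF-β into the matrix, read 4520 untreated and 6803 under T+E2, 1.51-fold (0.59), and its other 2 probe sets were under the floor. Ltbp2, whose product binds fibrillin but not latent TGF-β, read 1643 and 2616 on its single probe set, 1.59-fold (0.67). Ltbp4, which encodes the form that works in elastic fibre assembly with fibulins, read 36.9 and 55.9 on its single probe set, 1.51-fold (0.60), close to the floor on both arrays.

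Ltbp3, another carrier of latent TGF-β, was the gene whose probe sets disagreed. The 2 brighter ones were higher with T+E2, at 10862 and 13794 (0.34) and at 2882 and 3957 (0.46). Another read 105 untreated and 12.4, under the floor, under T+E2, at least 3.28-fold lower. The last one, annotated to the same accession as that one, was under the floor on both arrays at 15.9 and 5.61. The direction of Ltbp3 therefore depends on which probe set is read. The mean of all 4 gave -0.95, but it averaged the values under the floor as they stood, without raising them to it. Across the members, 16 of the 17 measured probe sets lay above 0, against 56.3% of all measured probe sets that name 1 gene. The Ltbp3 probe set at 105 and 12.4 was the exception. Of the 17, 15 reached the floor on both arrays. That Ltbp3 probe set and the second Tgfbr3 probe set reached it on 1 array each, which fixed their side in advance.

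**Figure D2:**
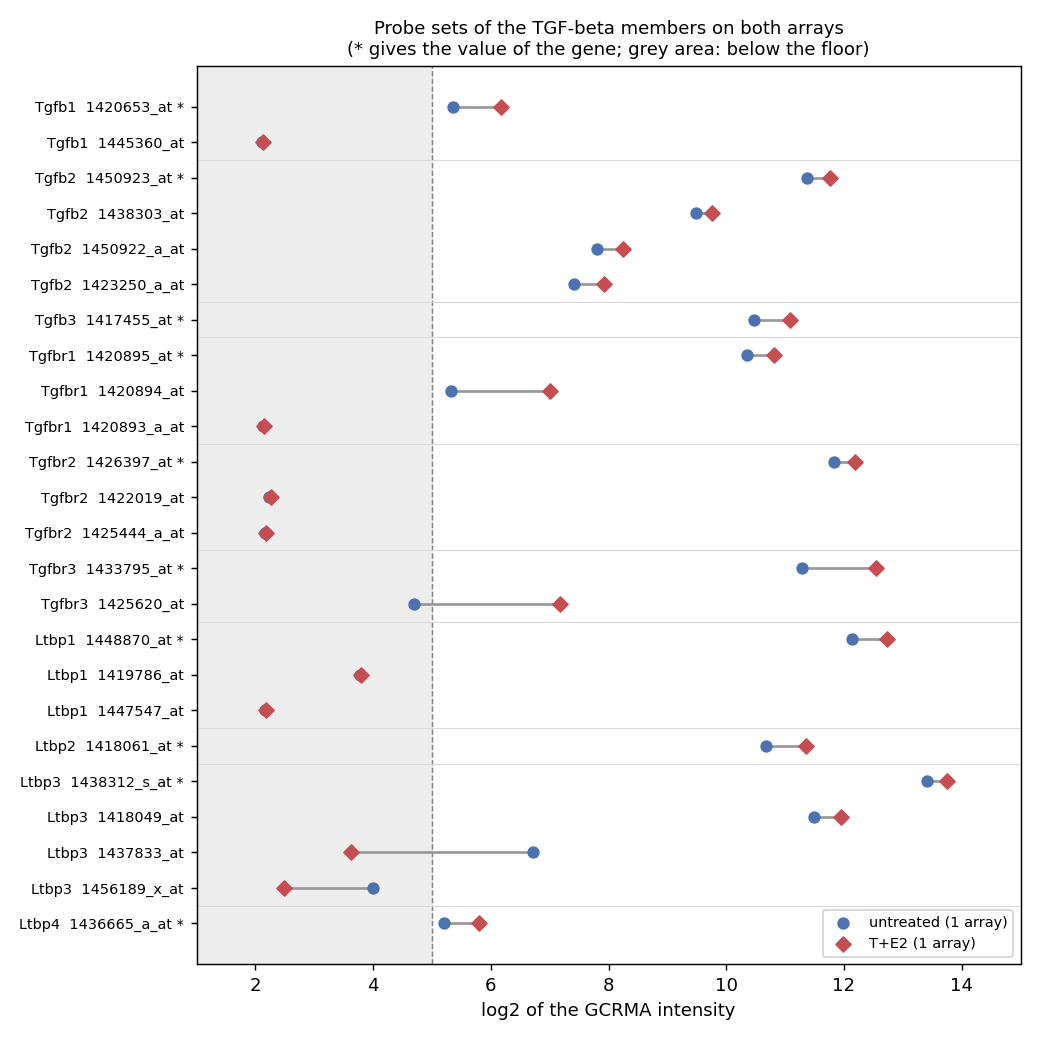
The log2 GCRMA intensity of each of the 24 probe sets of the 10 genes, with a blue circle for the untreated array and a red diamond for the T+E2 array; the grey area lies under the floor of 5, and a star marks the probe set that gives the value of the gene. The red diamond lies to the right in 16 of the 17 probe sets that reach the floor; 1 Ltbp3 probe set (105 to 12.4) runs the other way, and 7 probe sets are in the grey area on both arrays.

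The printed Ltbp3 window held 1 Smad element and none of the other motifs, with 47.2% G and C, and is shown for contrast with the G and C-rich Tgfb1 window.
Ltbp3 upstream window, chr19:5740650-5740899, plus strand: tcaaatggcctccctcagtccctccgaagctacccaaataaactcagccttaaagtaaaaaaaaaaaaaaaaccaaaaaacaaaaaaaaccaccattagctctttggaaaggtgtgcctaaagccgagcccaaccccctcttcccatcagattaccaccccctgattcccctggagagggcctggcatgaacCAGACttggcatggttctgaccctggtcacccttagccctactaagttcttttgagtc

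Of all 12 member windows, none held the AP-1 site, the androgen and glucocorticoid receptor half-site or the estrogen receptor half-site, which were found in 6.75%, 16.1% and 14.0% of 32851 RefSeq windows of the same length. The Smad element was in 7 of the 12, against 42.2%, the Sp1 box in 6, against 32.7%, and the TATA box in 1, a Tgfb2 window, against 12.4%. Some genes gave several windows, and 2 of the 3 Ltbp4 windows overlap. A match is only a string of letters, and its absence from these 250 bases says nothing of sites elsewhere.

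The difference between the arrays grew with the genomic span of a gene, and the members differ widely in span, from 17.6 kb for Ltbp3 to 387 kb for Ltbp1. The lowess trend over 10250 measured genes stood at 0.66 at the span of Ltbp1, 0.51 at that of Tgfbr3 (183 kb) and -0.04 at that of Tgfb1 (18.1 kb). With the trend removed, 9 of 10 members lay above 0, against 51.0% of measured genes, with a median of 0.35. Tgfb1 then had the largest value (0.87), followed by Tgfbr3 (0.75), Tgfb3 (0.61) and Ltbp4 (0.50). Tgfbr3 was then under 2-fold, Tgfb2 (0.06) and Tgfbr2 (0.01) were near 0, and Ltbp1 turned to -0.07. The class medians were then 0.61 for the ligands, 0.35 for the LTBPs and 0.21 for the receptors. The cause of the trend was not tested.

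**Figure D3:**
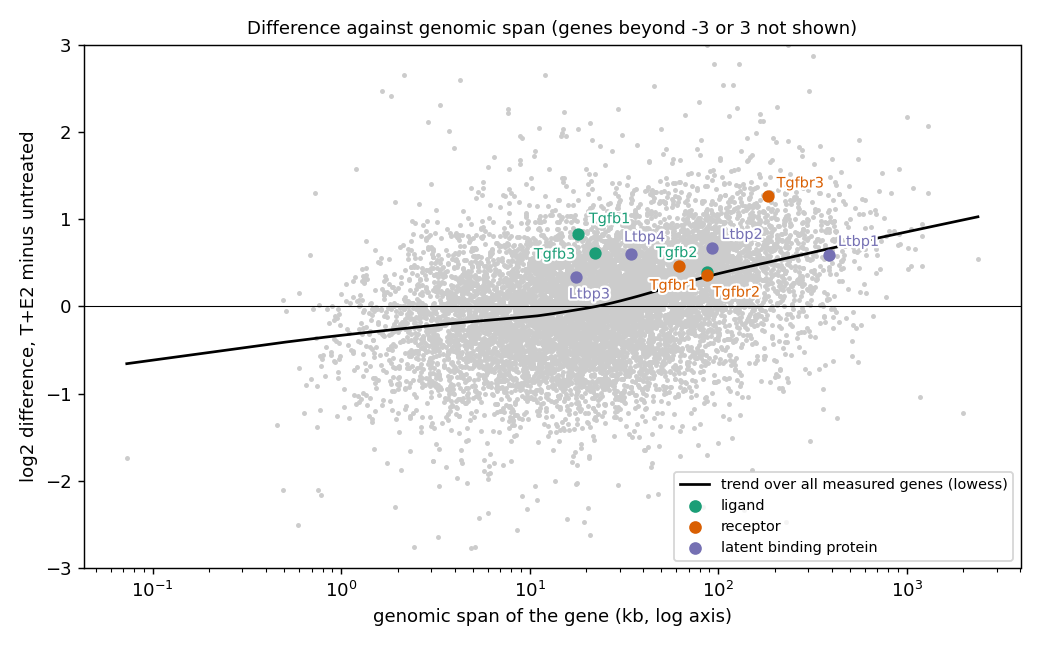
Log2 difference (T+E2 minus untreated) against genomic span in kb on a log axis, with 1 grey point per measured gene, the lowess trend in black and the TGF-β genes coloured by class. Tgfb2, Tgfbr2 and Ltbp1 lie close to the trend line, while Tgfb1, Tgfb3 and Tgfbr3 lie above it by 0.87, 0.61 and 0.75.

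Genes that act on latent TGF-β or carry its signal were read from 7 lists. The share of measured genes above 0 ran from 6 of 9, 4 of 6 and 12 of 18 in the elastic fibre, activin and inhibitor lists to 6 of 6 in the other receptors, against 55.8% of all measured genes, and with the span trend removed the list medians ran from 0.0 to 0.31. Apart from those at least 2-fold different, or the largest 2 of a list without one, the genes named here were picked after their values were seen. Of 14 measured activators of the latent complex, 2 reached 2-fold on the higher side and 0 on the lower side, with a median of 0.33. Of all measured genes, 4.96% were at least 2-fold higher and 4.01% at least 2-fold lower. The higher ones were Itgb8, the β subunit of the integrin that activates TGF-β on the cell surface (96.9 untreated and 225 under T+E2, 1.22), and Tgm2, the transglutaminase that cross-links LTBPs to the matrix (4431 and 10130, 1.19, with 4 of 4 probe sets higher). With the span trend removed Itgb8 was at 0.91 and Tgm2 at 1.13. Thbs1, which encodes the activator thrombospondin 1, was at 8528 and 13116 (0.62), while Bmp1, whose protease cleaves LTBP1, was at 1021 and 702 (-0.54).

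The microfibril and elastic fibre genes differed in both directions. Of 9 measured, 1 stood at least 2-fold above untreated, 2 at least as far below, and 6 in between (median 0.28). The shares of all measured genes were 4.96% above and 4.01% below. Fbn2, a fibrillin gene, was at 1866 untreated and 3739 under T+E2 (just 2-fold), and at a log2 difference of 0.48 with the span trend removed. Centring on the median of all measured genes left 0 of the 9 at least 2-fold higher. Averaging all probe sets of each gene, those under the floor included, left 0 at least 2-fold lower. The median over measured probe sets left 2 lower. The elastin gene Eln was at 331 and 95.8 (-1.79), and Adamts10, which encodes a fibrillin-binding ADAMTS protein, at 876 and 390 (-1.17). Each had 1 measured probe set. Fbn1 and Efemp2 were not analysed here. Ltbp4 and Eln thus lay on opposite sides, at 0.60 and -1.79.

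Of 10 measured signal transducers and cofactors, 1 was at least 2-fold higher, against 4.96% of all measured genes, and 0 lower, against 4.01%. The other 9 lay between, and the median of the 10 was 0.55. Zfyve9, which encodes the anchor protein SARA that brings Smads to the receptor, was at 696 untreated and 1517 under T+E2 (1.12, and 0.67 with the span trend removed). Smad3 was at 5085 and 7948 (0.64), the common partner Smad4 at 7449 and 8605 (0.21) and Smad2 at 1238 and 1170 (-0.08). The 2 receptor-activated Smads of the pathway therefore differed unequally on these probe sets. Smad2 had 2 measured probe sets, on opposite sides, and Smad3 had 1. With the span trend removed Smad3 was at 0.25 and Smad2 at -0.37.

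All 18 inhibitors of the pathway were measured, with a median of 0.21. Beside 4.96% higher and 4.01% lower of all measured genes, 2 reached 2-fold on the higher side, 0 on the lower side and 16 neither. These 2 were the inhibitory Smads, Smad6 (125 untreated and 301 under T+E2, 1.27) and Smad7 (714 and 1469, 1.04), which block the receptors and were at 0.98 and 0.99 with the span trend removed. With centring on the median of all measured genes, 1 of the 18 was at least 2-fold higher. Genes of matrix proteoglycans that bind TGF-β lay lower, with Dcn (decorin) at 18705 and 12543 (-0.58) and Fmod (fibromodulin) at 7222 and 4775 (-0.60, all 6 probe sets lower), but Bgn (biglycan) was at 21071 and 23826 (0.18). The decoy receptor gene Bambi was at 1335 and 787 (-0.76). Of the 18 inhibitors, however, 12 lay above 0 and 6 below. After the inhibitory Smads, the highest were Ski (2032 and 4053, 1.0, just under 2-fold), Cd109 (520 and 980, 0.91) and Pmepa1 (1186 and 1968, 0.73). With the span trend removed these were at 0.72, 0.54 and 0.52. In that setting 9 of the 18 lay above 0 and 9 below, with a median of 0.11.

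Among the other receptors and ligands of the superfamily no gene was 2-fold different as reported, although Bmpr2 was at least 2-fold higher when its probe sets were averaged. Of 6 measured type I, type II and accessory receptor genes, all 6 lay above 0, against 55.8% of all measured genes, with a median of 0.25. With the span trend removed 3 of the 6 lay below 0, and the median was 0.0. Bmpr2, a BMP type II receptor gene, was at 2919 untreated and 4850 under T+E2 (0.73), and Eng, which encodes endoglin, the membrane relative of betaglycan, was at 232 and 328 (0.50). Of 6 measured activin subunit and follistatin genes, 4 lay above 0, with a median of 0.14, led by the activin-binding Fst (252 and 418, 0.73) and Fstl3 (435 and 577, 0.41). The activin subunit gene Inhba read 13.8 untreated, under the floor, and 37.2 under T+E2, so its 0.22 is a lower bound. At a floor of 4 Inhba was at 1.22, and with no floor at 1.44.

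Of the genes that TGF-β is known to induce, 24 of the 27 measured lay above 0, against 55.8% of all measured genes. With the span trend removed 22 of the 27 did, against 51.0%, with a median of 0.31. The sizes were mixed. Of 27 measured, 4 reached 2-fold on the higher side, against 4.96% of all measured genes, and 1 on the lower side, against 4.01%. The other 22 reached neither, and the median of the 27 was 0.27. Smad7, which was 1 of the 4, Skil and Pmepa1 are in this list as well as among the inhibitors. Col1a1, Col1a2, Col3a1 and Fn1 are also among the mesenchymal markers. The other higher ones were Junb, an AP-1 subunit gene, Adam12, a metalloprotease gene, and the oxidase gene Nox4. Junb read 43.1 untreated, just above the floor, and 230 under T+E2 (2.41), so the size of its difference is less certain. Adam12 read 240 and 590 (1.30), and Nox4 read 149 and 337 (1.17, with its 2 probe sets on opposite sides). With the span trend removed Junb was at 2.68, Adam12 at 0.66 and Nox4 at 0.71. In that setting 2 of the 27 were at least 2-fold higher, against 2.94% of all measured genes. Tagln, a smooth muscle target, was at 3772 and 1403 (-1.43). Ccn2, a matrix signalling gene, was at 4365 and 8524 (0.97) and Tgfbi at 3954 and 6257 (0.66). With the span trend removed Ccn2 was past 2-fold at 1.18, and Tgfbi was at 0.60. The collagen genes Col1a1 (0.26), Col1a2 (0.25) and Col3a1 (0.12) and the smooth muscle actin gene Acta2 (0.13) differed little. Many of these genes also respond to other signals.

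**Figure D4:**
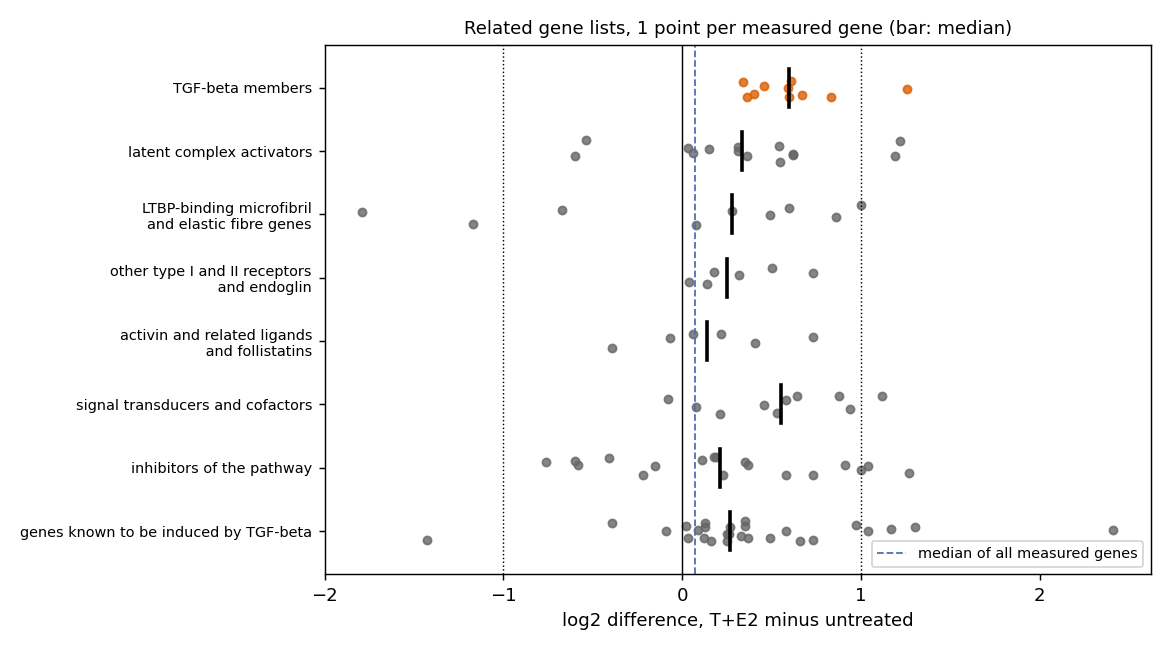
Log2 difference (T+E2 minus untreated) of each measured gene in the TGF-β set (orange) and in 7 related lists (grey), with a black bar at each list's median, a dashed blue line at the median of all measured genes (0.07) and dotted lines at 2-fold. The TGF-β genes all lie between 0.34 and 1.26, whereas the induced genes run from -1.43 (Tagln) to 2.41 (Junb, just above the floor untreated).

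Few markers of other cell types reached the floor. Of 10 epithelial markers, Cdh1 alone was measured, at 41.4 untreated and 190 under T+E2, and the summed intensity of the 10 was 82.0 and 231. Epcam and all 4 keratin genes in that list were under the floor on both arrays. Among 8 leukocyte markers Cd14 (70.1 and 78.7) and Lyz2 (1065 and 369) were measured, the summed intensity was 1166 and 479, and Ptprc was under the floor. Among 8 endothelial markers Tek alone was measured (904 and 1040), the summed intensity was 935 and 1071, and Pecam1 and Cdh5 were under the floor. The mesenchymal markers had a median difference of 0.12, with a summed intensity of 185044 and 213489, and Pdgfra (0.67) differed most. The part of these differences in those of the TGF-β genes was not tested.

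The members kept their side under most ways of processing, as the plot of the 10 genes by setting shows. Tgfbr3 stayed at least 2-fold higher in 10 of 11 alternatives, between 1.19 and 1.87, and was at 0.75 in the eleventh, the removal of the span trend. Its value was the same 1.26 at each floor setting and with plain probe set names. Those settings could not change it, because its probe set lay far above each floor and has a plain name. Centring on the median of all measured genes took 0.07 from every gene. It could not bring a member to 0, since the lowest was at 0.34, and the members then lay at 0.27 to 1.19. Centring turned the balance of all measured genes from 4.96% higher and 4.01% lower to 3.97% and 5.06%.

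**Figure D5:**
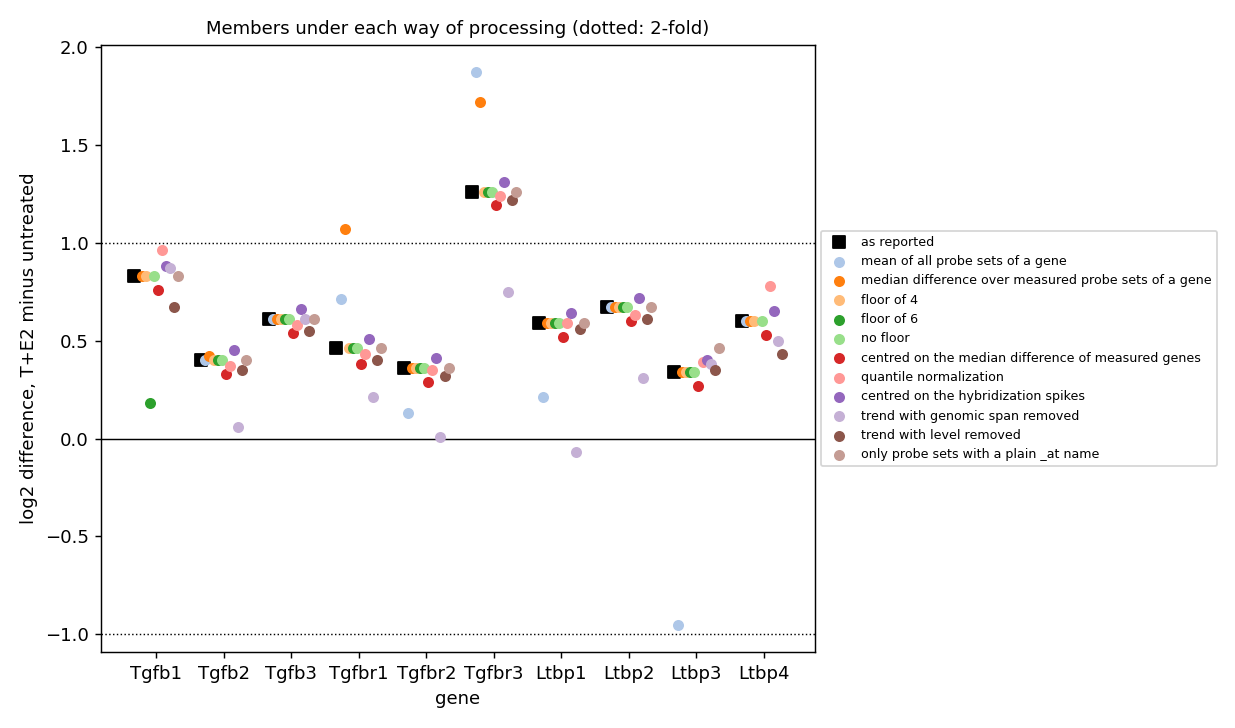
Log2 difference (T+E2 minus untreated) of each TGF-β gene as reported (black square) and under each alternative (coloured circles), with dotted lines at 2-fold; settings are set side by side within a gene, and a gene under the floor in a setting has no point. Only 2 points lie below 0, Ltbp3 with the mean of all its probe sets, averaged before the floor was applied (-0.95), and Ltbp1 with the span trend removed (-0.07).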

How the data were processed

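Gene expression was measured on 2 Affymetrix mouse arrays, 1 of untreated and 1 of T+E2 cells. Per the labels' protocols, an Omega Bio-Tek kit was used for total RNA and NuGEN kits for biotinylated cDNA. The deposited values are intensities on a linear scale, made by GCRMA, of unstated version, per the submitters' processing notes. GCRMA corrects background by probe sequence and pushes dim probe sets toward a common low value, so differences close to the floor are less certain.

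Here log2 was taken of the deposited intensities, a floor of 5 (log2) was applied, and T+E2 minus untreated was formed. Probe sets were named from the platform annotation, with symbols updated through RefSeq gene identifiers (GRCm38.p6): of 45101, 34945 named 1 gene, 932 several and 9160 none. Genomic spans (first to last base) came from the same table. Trends were removed by lowess with a fraction of 0.5 (statsmodels 0.14.6). The number of arrays limits the precision. The 2-fold count and the trend removal were tested on simulated data. The simulated untreated levels were set well above the floor, so genes near it, such as Tgfb1 and Ltbp4, were not covered. The simulation also took no account of a spread between cultures. The alternatives were the probe set summary, the floor, 3 scalings, 2 trends and the probe set type. In the mean of all probe sets, values under the floor were averaged as they stood, and the floor was applied to the mean. Named genes were all members, and from each list up to 4 genes at least 2-fold different or else the 2 largest. The members and lists were chosen with earlier results of these data known.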

Additional observations from a re-analysis of the deposited data

How the results depend on the processing

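Of 107 member values under 11 alternatives, 93 moved by no more than the median SD between probe sets of 1 gene (0.22), 12 moved further on the same side and 2 turned: Ltbp1 to -0.07 with the trend with genomic span removed and Ltbp3 to -0.95 with the mean of all probe sets. Some of the 93 could hardly have moved. The floor settings changed the value of no member but Tgfb1, and centring shifts every gene by about the same small amount. The count of members at least 2-fold higher was 2 with the median difference over measured probe sets (Tgfbr3 and Tgfbr1) and 0 with the span trend removed. The receptor median was 0.71 with the mean of all probe sets, 1.07 with the median over measured probe sets and 0.21 with the span trend removed, where the medians of all members and of the LTBPs were both 0.35. With the span trend removed the count of all measured genes at least 2-fold higher was 301 in place of 509, and the mean of all probe sets gave 315. Over the settings, the 2-fold higher counts ran from 1 to 4 for the activators, 0 to 4 for the inhibitors, 2 to 5 for the induced genes, 0 to 2 for the transducers and 0 to 1 for the elastic fibre, other receptor and activin lists, and the 2-fold lower count from 0 to 2 for the elastic fibre list. The probe set type was added after the data had been seen. Tgfb1 under the mean of all probe sets, and Ltbp4 at a floor of 6 and under plain probe set names, had no value. With 1 array per condition no array could be left out. Tgfb1 and Ltbp4 lay near the floor, which limits their precision. No paired analysis was possible because each condition had 1 array.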

Other observations

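In Tgfbr1 and Tgfbr3, the 2 receptor genes with a second measured probe set, the dimmer probe set gave the larger difference. For Tgfbr1 it was 1.68 against 0.46, and for Tgfbr3 at least 2.18 against 1.26. In Ltbp3 the dimmest measured probe set ran the other way, at -1.71 against the floor, beside 0.34 and 0.46. The 4 probe sets of Tgfb2, none of them near the floor, lay within 0.28 to 0.51.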
